A study of Homo sapiens with 6 samples.

Results

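Kidney organoids that lacked PKHD1 were compared with heterozygous organoids after long exposure to forskolin, on 1 array a side. The organoids, small tissues that hold nephron segments and stroma, were differentiated from H9, which is an established line of human embryonic stem cells. The PKHD1-/- line was clone C51 and the PKHD1+/- line was clone C9, so both carried a mutant PKHD1 allele, and no unedited line is among the groups. Each genotype rested on 1 clone, and clone and genotype cannot be told apart. Both groups received 20 µM forskolin from day 14 to day 35 of differentiation and were harvested then. The labels do not say whether they lay on a matrix, which part of PKHD1 was altered or whether organoids were pooled. These 2 arrays were chosen by their labels from the 6 of the study. The other 4 arrays are given side by side. They hold the same clones at day 35 on a gelatin and fibrin matrix, either static or with a medium flow of 4.27 ml/min that began on day 15. Each of the 6 groups holds a single array, so no difference below has a spread between replicates, a standard error or a p-value.

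PKHD1 encodes fibrocystin, a large membrane protein of the primary cilium and apical surface of tubule cells, and its loss causes autosomal recessive polycystic kidney disease. Forskolin switches on adenylyl cyclase, the enzyme that makes cyclic AMP. Cyclic AMP activates protein kinase A, which phosphorylates the transcription factor CREB and opens the chloride channel CFTR, and chloride and water then enter the lumen. In cystic kidneys cyclic AMP is known to drive both fluid secretion and proliferation of tubule cells, and forskolin is used to swell tubules of organoids. The comparison asks how the genotypes differed under that stimulus.

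Amplified RNA carrying the dye Cy5 was read on 3D-Gene Human 25k arrays, which use 1 colour. By the stamps on the deposited scanner output, the 2 forskolin arrays belong to the same array run and the other 4 to another. Levels set against those 4 therefore differ in both culture and array run, which cannot be told apart. The forskolin arrays were also the dimmest of the 6: the median spot exceeded the blank spots by 16.5 units for PKHD1-/- and 21.2 for PKHD1+/-, against 33.6 to 58.3 on the other arrays. A probe counted as above background when its spot exceeded the trimmed mean of the blank spots by 2 SD. This held for 89.0% of probes on the PKHD1-/- array and 83.6% on the PKHD1+/- array. Values below are log2 intensities after background correction and quantile normalization, a difference is PKHD1-/- minus PKHD1+/-, and a gene was measured when its brighter forskolin array lay above background (16006 of 17540 genes). A difference of 1 is a doubling of the offset intensity. In whole organoids, fewer cells of a type and less RNA per cell cannot be told apart.

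PKHD1 itself read nearly the same in both genotypes. Its level was 7.33 in PKHD1-/- and 7.24 in PKHD1+/- with forskolin, 7.35 and 7.49 in static culture, and 7.37 and 7.40 under flow. The difference was 0.09 with forskolin, -0.14 in static culture and -0.04 under flow. Of its 2 probes, the dimmer read 5.97 against 6.01 with forskolin and the brighter read 8.69 against 8.46. The 2 probes therefore differed in direction, and neither differed by more than 0.5. A small edit can leave the transcript readable by both probes, and whether they lie in the altered part was not tested, so this gene does not check the labels. FOS, an immediate early transcription factor, read 6.95 and 7.29 with forskolin and lay between 9.59 and 11.51 on the other 4 arrays. RAC1, a small GTPase of the cytoskeleton, read 11.64 and 11.61.

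The largest differences lay at the first and last blocks of the array. The spots are printed in 24 blocks of 104 columns, numbered from 1, and the files tie no block to a function of its genes. Of 191 probes with a gene that differed by at least 1 in size, 147 (77.0%) lay in blocks 1, 23 and 24, which hold 2521 probes or 12.5% of those with a gene. In block 1, 59 probes were lower in PKHD1-/- and 0 were higher. In blocks 23 and 24 the direction was the opposite, with 86 higher and 2 lower. The median difference of a block went from -0.17 in block 1 to 0.20 in block 24. Block medians spanned only -0.03 to 0.06 in the static pair and -0.005 to 0.02 in the flow pair. Neighbouring spots also differed alike: the rank correlation across probes between adjacent columns was 0.436 with forskolin, 0.135 in static culture and 0.098 under flow. Against the mean of its own static and flow arrays, the PKHD1-/- forskolin array went from -0.18 in block 1 to 0.08 in block 24. The same subtraction gave -0.02 and -0.06 in PKHD1+/-. Many differences below are also given after subtracting the median of their neighbours, the spots within 2 rows and 5 columns, a setting chosen after seeing the data. A value with no such remark is not corrected for position. Of 992 measured genes in the lists used below, 17 were past 1 and 7 of these stayed past it with neighbours subtracted: LDHA, SREBF2, CXCL12, IL17B, IL17D, RPL38 and HAPLN1. Of 125 that were at least 0.5 in size, 70 stayed so. The part of position in any single gene was not tested.

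**Figure D1:**
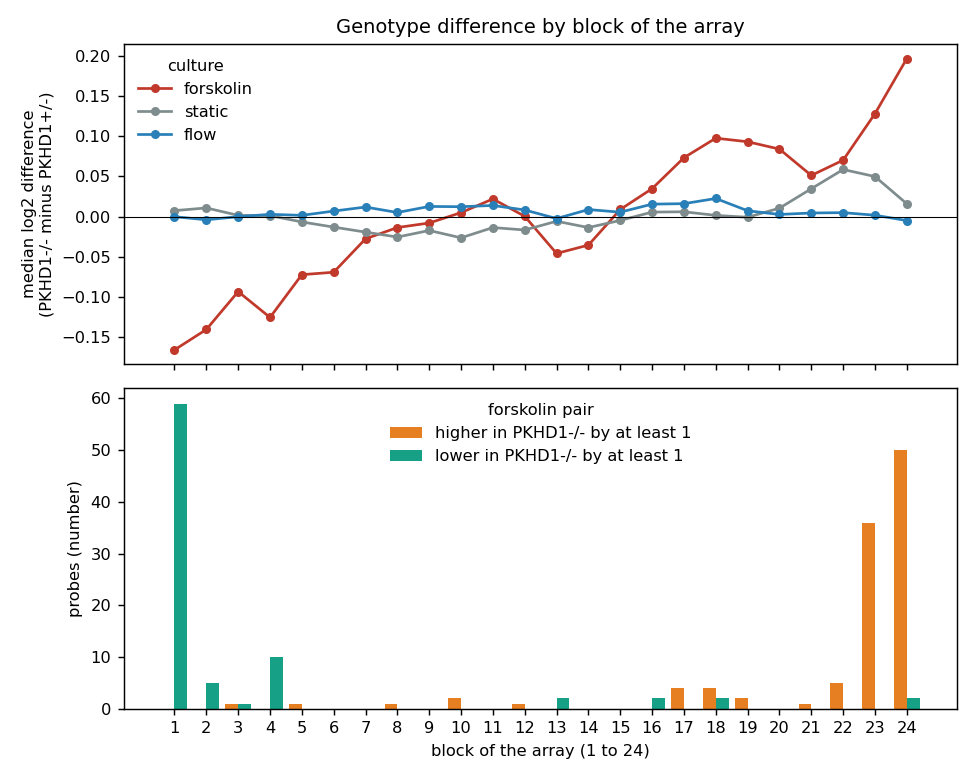
The upper panel plots the median log2 difference between genotypes (PKHD1-/- minus PKHD1+/-) of all probes with a gene in each of the 24 blocks of the array, with 1 line for each culture. The lower panel counts the probes that differed by at least 1 in the forskolin pair. The forskolin line climbs from -0.17 to 0.20, and the tallest bars stand in block 1 (59 lower) and block 24 (50 higher).

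Probes of 1 gene read the same RNA at different places on the array, and in the forskolin pair their differences were only weakly related. Over 1881 genes with at least 2 probes above background on both arrays, the differences of the first 2 probes correlated at r = 0.115, across genes that share the same arrays. The value was 0.396 over 1988 genes in the static pair and 0.487 over 1972 genes in the flow pair. The 2 probes had opposite signs in 48.9% of genes with forskolin, 36.9% in static culture and 38.1% under flow. The SD between probes of a gene was 0.31, beside an SD over all measured genes of 0.287. Either probe differed by at least 1 in 44 genes, with the same sign in 26 of them, and in 0 of these did both differ by at least 1 in the same direction. These SDs describe probes within an array and not a spread between samples. Both probes differed by at least 0.5 in the same direction in 13 genes and in opposite directions in 12. After the neighbours were subtracted these counts were 7 and 6, and the correlation between probes was 0.067, no higher than before. The same subtraction gave 0.427 in the static pair and 0.502 in the flow pair. The 7 genes, chosen after their values were seen, include GUCY1A1, part of the receptor for nitric oxide, whose probes read -1.41 and -0.60 (-1.06 and -0.57 with neighbours subtracted). They also include MATN2, a matrix adaptor protein, at -1.47 and -0.66 (-0.91 and -0.58), and METAP2, a methionine aminopeptidase, at 0.59 and 1.11 (0.51 and 0.59).

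Counted over all genes, 82 were at least 1 higher in PKHD1-/- (0.512% of 16006) and 68 at least 1 lower (0.425%), together 0.937%. The static pair gave 0.69% of 16087 genes (0.435% higher and 0.255% lower) and the flow pair 1.07% of 16376 (0.281% and 0.788%). The median over all measured genes was 0.00587 and 51.6% of genes lay above 0 with forskolin, against 49.3% in static culture and 52.1% under flow. The split depended on the scaling: 54.7% of genes past 1 were higher here, 28.8% with arrays scaled to their 75th percentile and 82.0% in the authors' value table, which shifted the median gene by 0.16 and 0.23. Of the 82 higher genes, 67 had a probe in blocks 1, 23 or 24 and 67 had a neighbouring spot, within 2 rows and columns, past 1 in the same direction. Of the 68 lower genes these counts were 50 and 59. With neighbours subtracted, 30 and 28 genes remained, all of them among the first set. Without blocks 1, 23 and 24 there were 15 higher and 19 lower genes, of which 15 and 18 were in the first set. The blocks were picked for the genes past 1 that they hold, so the last counts largely restate where those genes lie.

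The 5 lowest differences belonged to genes that every other array read brightly. A2M, a secreted protease inhibitor of blood and tissue fluid, read 6.10 in PKHD1-/- and 10.98 in PKHD1+/- with forskolin, 12.06 and 11.69 in static culture, and 9.75 and 10.73 under flow. The PKHD1-/- forskolin array alone was near background, at a spot median of 52.4 against 1720, and the difference was -4.88 (29.5-fold lower). CBX1, a heterochromatin protein, read 5.95 against 9.97, and EIF4A2, a helicase of translation initiation, 6.34 against 10.33. RPL38, a protein of the large ribosomal subunit, read 9.24 against 12.98 and between 13.31 and 13.55 on the other 4 arrays. EBNA1BP2, a ribosome assembly factor, read 6.60 against 9.79. These 5 differences ran from -4.88 to -3.19. PLAC1, a gene first known from placenta, was not well above background in PKHD1-/- and read at least 4.52-fold lower there, with measured means of 5.71 and 7.96. SREBF2, the transcription factor that turns on cholesterol synthesis, read 6.88 against 8.92, a difference of -2.04 (0.96 in static culture and -0.98 under flow).

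The other 8 of the 15 lowest ran from -1.96 to -1.53. ATP5F1D is a subunit of ATP synthase and differed by -1.96. ARL14EP (-1.81) and SHISA3 (-1.59), an inhibitor of WNT and FGF receptor traffic, came from blocks 24 and 4. LDHA, which makes lactate at the end of glycolysis, read 11.44 in PKHD1-/- and 13.16 in PKHD1+/-, with 13.08 to 13.74 on the other 4 arrays. Its difference was -1.72, and -1.24 after the neighbours were subtracted. CHLSN (-1.56), the cap-binding protein NCBP2 (-1.55), the nucleic acid binding protein CNBP (-1.53) and BMI1 (-1.53), a Polycomb protein, completed them. Of the 15 lowest, 10 were in block 1 and 2 in block 24. All 15 had at least 1 neighbouring spot past 1 in the same direction, from 1 for EIF4A2 and ARL14EP to 6 for EBNA1BP2. With neighbours subtracted the 15 still ran from -4.37 for A2M to -1.14 for CNBP.

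The 15 highest genes were smaller in size and nearly all from the last blocks. MRPL42, a protein of the mitochondrial ribosome, read 9.02 in PKHD1-/- and 6.41 in PKHD1+/- with forskolin, 8.76 and 7.85 in static culture, and 7.98 and 8.32 under flow. The forskolin arrays were the highest and the lowest of the 6, and the difference was 2.60. PIGP, of the glycosylphosphatidylinositol anchor pathway, differed by 2.12. POLD4, a DNA polymerase delta subunit, differed by 2.04 and CPXM1, a secreted carboxypeptidase-like protein, by 2.00. SARAF, which restrains calcium entry, read 8.72 and 6.76 with forskolin, and both values lay below the 9.49 to 10.00 of the other arrays. Next came the protease CAPN2 (1.82), TMEM47 (1.79), the centrosome protein CEP350 (1.66) and MRPL10 (1.62). GLG1 (1.59), TMEM205 (1.52), the nucleolar methyltransferase FBL (1.49), EIF4E2 (1.48), FTSJ3 (1.47) and the proteasome subunit PSMB5 (1.47) followed. Their blocks were 22 to 24 except for SARAF in block 18. With neighbours subtracted, the 15 ran from 2.01 for PIGP to 0.84 for PSMB5, and GLG1, FBL and FTSJ3 were also under 1.

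**Figure D2:**
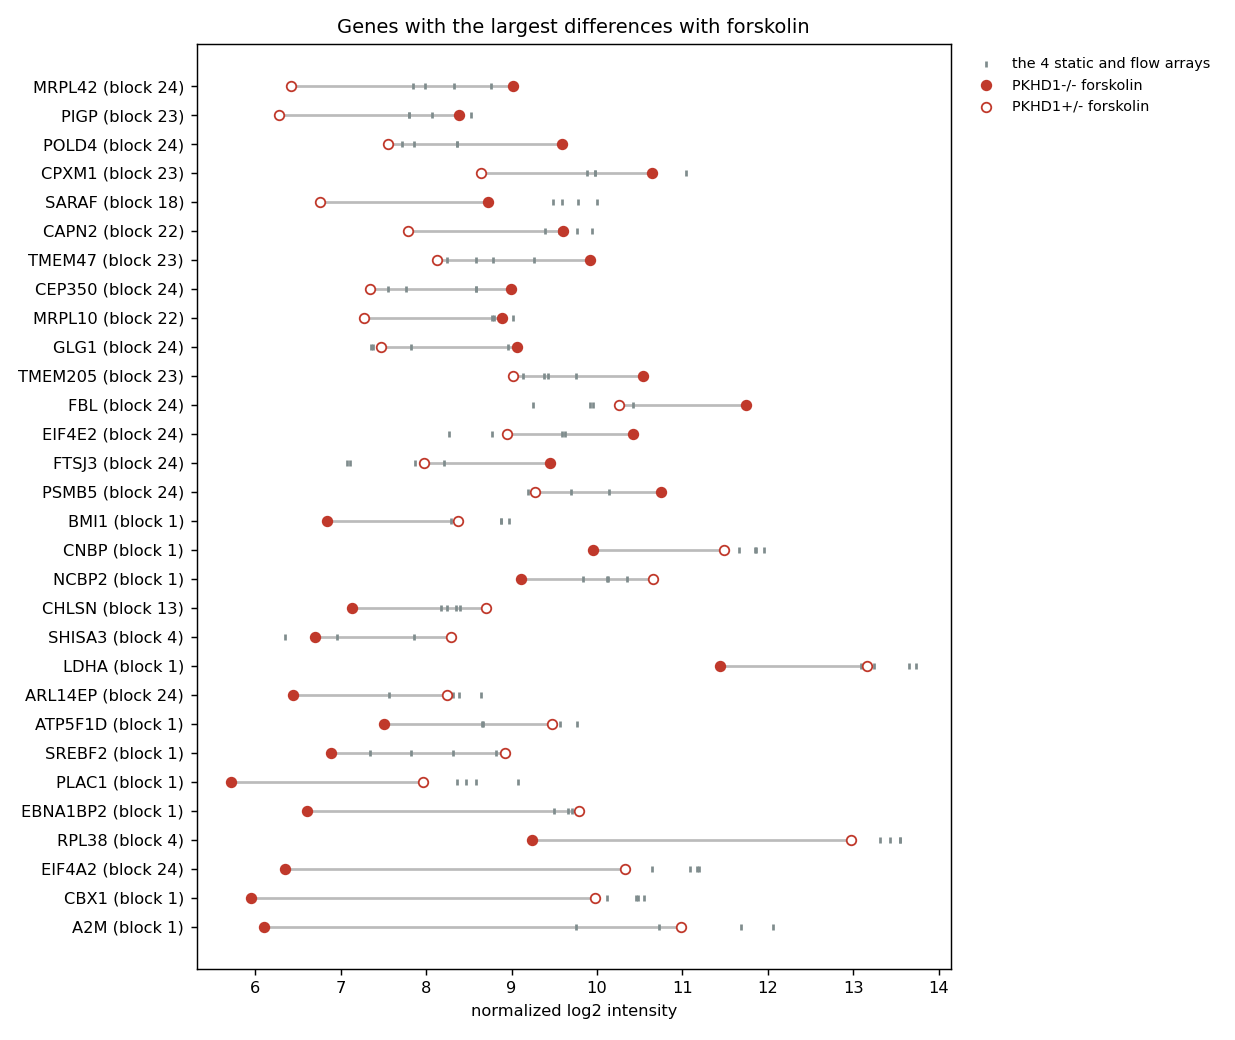
Normalized log2 intensity (horizontal axis) of the 15 genes with the highest and the 15 with the lowest difference in the forskolin pair, with the block of the array in brackets. Filled and open circles are the PKHD1-/- and PKHD1+/- forskolin arrays, and grey ticks are the 4 static and flow arrays. For A2M, CBX1, EIF4A2, RPL38 and EBNA1BP2 the filled circle lies below every other mark.

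Away from the crowded blocks a short group of 9 genes remained. They were chosen after their values were seen: at least 1 in size before and after subtraction, no probe in blocks 1, 23 or 24, and no neighbouring spot past 1 in the same direction. CXCL12, a chemokine that stromal cells secrete to attract cells bearing its receptor, read 6.75 in PKHD1-/- and 8.01 in PKHD1+/- with forskolin, 9.09 and 9.09 in static culture, and 8.44 and 8.92 under flow. Both forskolin values lay below the other 4, and the difference was -1.26 (-1.17 with neighbours subtracted). CISD1, an iron-sulphur protein of the outer mitochondrial membrane, differed by -1.05 and by -0.79 in static culture but by 0.33 under flow. TCEAL8 also differed by -1.05. Higher in PKHD1-/- was IL17D, a cytokine of the interleukin 17 family, at 8.03 against 6.68 (1.35). CACNG1, a subunit of the calcium channel of skeletal muscle, read 8.13 against 6.72 (1.41) and 5.82 to 6.04 on the other 4 arrays. GOLGA3, a Golgi matrix protein, differed by 1.18 and IDH2, the mitochondrial isocitrate dehydrogenase, by 1.11. RAB2B (1.05) and WASL (1.02), which act in membrane traffic and actin assembly, completed the group. Each of these 9 genes had 1 probe, so no other probe bears on it.

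A group of 12 genes kept 1 direction of difference across the cultures, at 0.5 or more in size in the forskolin, static and flow pairs. This describes arrays that share their clones and their normalization. That size was reached by 7.92% of 16006 genes with forskolin, 5.2% of 16087 in static culture and 7.16% of 16376 under flow. These shares count both directions, and the overlap expected from them was not worked out. IL17B, a second cytokine of the interleukin 17 family, read 10.51 in PKHD1-/- and 9.12 in PKHD1+/- with forskolin, 6.98 and 6.16 in static culture, and 8.41 and 7.56 under flow. Its differences were 1.39, 0.82 and 0.85, and PKHD1-/- was higher within each culture although the cultures differed more than the genotypes. Subtracting neighbours left 1.22 with forskolin. GUCY1A1, which marks pericytes and other mural cells, read 6.69 and 7.70 with forskolin, 8.77 and 9.77 in static culture, and 7.01 and 8.21 under flow. Within each culture PKHD1-/- was the lower, and the flow pair differed by -1.19. IGFBP7, a secreted binding protein of insulin-like growth factors, read 12.32 against 12.99 with forskolin and differed by -0.67, -0.70 and -1.20. GUCY1A1 and IGFBP7 were the lower genes among the 12.

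Among the 10 higher genes 3 are known from skeletal muscle, MYH3, KLHL41 and TNNT1. In the forskolin pair 5 of 46 muscle genes were at least 0.5 higher and 4 at least 0.5 lower. Together these were 19.6%, beside 7.92% of all genes. MYH3, the embryonic myosin heavy chain, read 14.52 in PKHD1-/- and 13.73 in PKHD1+/- with forskolin, 9.72 and 7.60 in static culture, and 12.27 and 11.62 under flow. The forskolin arrays were the brightest for it, and the difference there, 0.79, was under that of 2.13 in static culture. KLHL41, a sarcomere assembly protein, differed by 0.70, 2.25 and 1.26, and TNNT1, slow skeletal troponin T, by 0.51, 1.18 and 1.09. Of the rest, MAGEA4 (0.93, 0.80 and 0.56) and MAGEA8 (0.67, 0.68 and 0.71) are germ cell genes of the X chromosome. SELPLG, a selectin ligand, differed by 0.85 with forskolin, the protease CTSK by 0.76, KREMEN2, a receptor for DKK proteins, by 0.57, and the matrix protein OGN by 0.54. IL17B lay in block 23 and CTSK, SELPLG, KLHL41 and OGN in block 24, where block medians were 0.13 and 0.20. After subtraction OGN (0.37), TNNT1 (0.44) and KREMEN2 (0.47) were under 0.5.

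**Figure D3:**
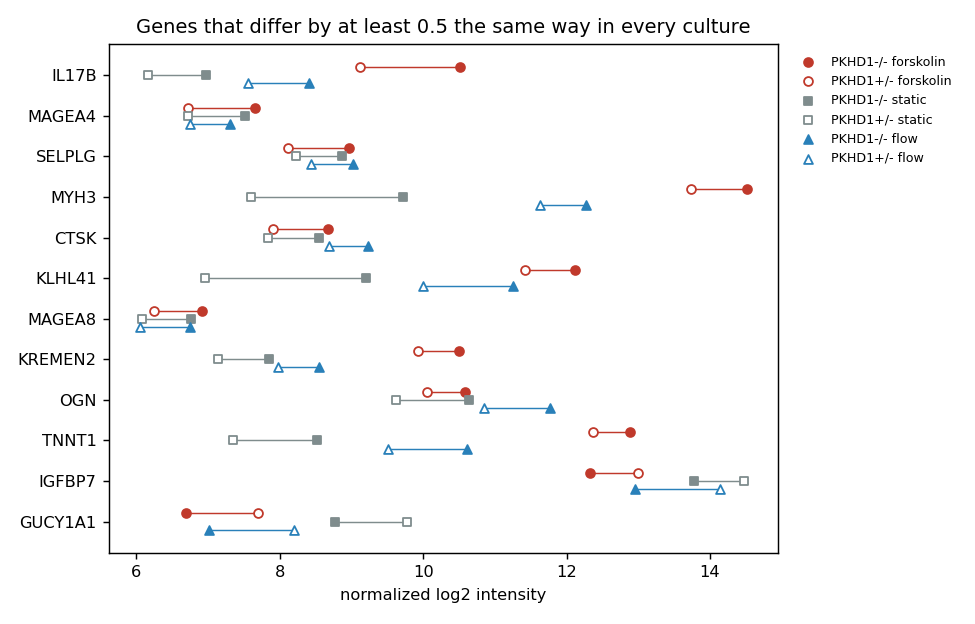
Normalized log2 intensity (horizontal axis) of the 12 genes that differed by at least 0.5 in the same direction in every culture. Filled marks are PKHD1-/- and open marks PKHD1+/-, each 1 array, and a line joins the pair of a culture. The filled mark lies to the left for GUCY1A1 and IGFBP7 and to the right for the other 10 genes.

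Genes of polycystic kidney disease and of the cilium differed about as often as genes at large. All 36 on the array were measured, 0 were past 1, and 1 was at least 0.5 higher and 2 at least 0.5 lower (8.33%), beside 7.92% of all genes that were at least 0.5 in size with forskolin (5.2% in static culture and 7.16% under flow). The median was 0.01. OFD1, a protein of the ciliary base, read 7.03 in PKHD1-/- and 6.34 in PKHD1+/- (0.69, and 0.68 with neighbours subtracted), and its static difference was -0.34. BBS2, a member of the BBSome that carries cargo into cilia, read 6.88 and 7.52 (-0.64, and -0.49). PRKCSH, the glucosidase II beta subunit mutated in polycystic liver disease, differed by -0.56 with forskolin (-0.37), 1.43 in static culture and -2.11 under flow. PKD1 and PKD2, named for their role, encode the polycystins of the dominant disease and differed by -0.01 and 0.39. PKD2 read 6.70 and 6.30 with forskolin and 8.10 to 8.48 on the other 4 arrays.

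Genes of cyclic AMP signalling, listed together with target genes of CREB, differed by no more than 0.66 in size. Of 50 genes on the array 47 were measured, 0 were past 1 (0.937% of all genes were), 5 were at least 0.5 in size (10.6%, beside 7.92%), and the median was -0.02. The phosphodiesterases PDE4B and PDE8A, which break cyclic AMP down, read 7.17 against 6.52 (0.66) and 9.03 against 8.50 (0.53). PRKAR1A, the regulatory subunit that holds protein kinase A inactive, read 9.45 against 10.00 (-0.55). PKIB, an inhibitor of the same kinase, differed by -0.52, and CREB1 itself by -0.51 (7.30 against 7.80). PDE4B lies in block 24, and with neighbours subtracted all 5 of these lay between -0.47 and 0.50. The cyclases ADCY3 (0.35), ADCY6 (-0.26) and ADCY9 (-0.12), named for their role, were within 0.5 as well.

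Target genes of CREB can carry the cyclic AMP response element, TGACGTCA, which reads the same on both strands. It was searched, with its shorter core TGACG on both strands, in the 250 bases before and 50 after the start of each gene (RefSeq, GRCh38.p14). Every full element contains the core. A promoter was at hand for 12819 measured genes, of which 366 (2.86%) held the full element and 30.9% the core. In the cyclic AMP list 5 of 37 promoters held it (13.5%). That list was chosen to include targets of CREB, so nothing is drawn from its share. The promoters of CGA and SST are shown as the textbook case, DUSP1 as another member of the list, and LDHA because it had the lowest difference among genes with the element. Capitals mark the full element. They lie at chr6:87095057-87095356 (minus strand), chr3:187670345-187670644 (minus), chr5:172771146-172771445 (minus) and chr11:18394313-18394612 (plus).
CGA: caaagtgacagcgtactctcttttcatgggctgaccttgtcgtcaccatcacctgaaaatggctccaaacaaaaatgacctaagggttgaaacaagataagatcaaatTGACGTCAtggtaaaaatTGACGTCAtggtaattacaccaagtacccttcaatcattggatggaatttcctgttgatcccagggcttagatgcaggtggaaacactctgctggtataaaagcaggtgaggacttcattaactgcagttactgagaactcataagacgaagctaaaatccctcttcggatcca
SST: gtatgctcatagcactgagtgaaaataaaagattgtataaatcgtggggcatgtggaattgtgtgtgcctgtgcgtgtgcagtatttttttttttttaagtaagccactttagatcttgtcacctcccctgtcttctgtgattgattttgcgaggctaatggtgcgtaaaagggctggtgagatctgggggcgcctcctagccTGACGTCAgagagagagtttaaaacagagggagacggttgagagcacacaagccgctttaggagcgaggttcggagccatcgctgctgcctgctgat
DUSP1: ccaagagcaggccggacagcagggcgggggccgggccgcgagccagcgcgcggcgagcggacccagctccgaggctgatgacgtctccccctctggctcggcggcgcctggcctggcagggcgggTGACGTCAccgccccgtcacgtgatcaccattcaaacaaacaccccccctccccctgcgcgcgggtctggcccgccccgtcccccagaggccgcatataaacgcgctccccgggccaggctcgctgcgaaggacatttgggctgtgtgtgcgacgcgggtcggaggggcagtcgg
LDHA: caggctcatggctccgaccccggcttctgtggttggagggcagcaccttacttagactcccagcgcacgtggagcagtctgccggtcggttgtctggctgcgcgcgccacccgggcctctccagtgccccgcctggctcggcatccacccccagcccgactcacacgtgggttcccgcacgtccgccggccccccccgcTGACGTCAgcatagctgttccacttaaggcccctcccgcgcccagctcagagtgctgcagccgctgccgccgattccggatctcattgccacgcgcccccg

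Genes with the element had nearly the same median difference as genes without it. Their median difference was -0.005, against 0.005 for the 12453 genes without it, and 49.5% and 51.2% lay above 0. At least 1 in size were 1 higher and 4 lower of the 366 (1.37%), against 0.972% of those without. Of the 4 lower ones LDHA was in block 1. By direction, 4 of 59 promoters of lower genes held the full element (6.78%) and 1 of 67 of higher genes (1.49%), beside 2.86% of all. The core was in 44.1% of promoters of lower genes and 32.8% of higher genes, beside 30.9% of all. SST, the hormone somatostatin, read 11.84 in PKHD1-/- and 12.10 in PKHD1+/- with forskolin and 7.48 to 8.38 on the other 4 arrays. Both forskolin arrays were thus far above the rest for SST, and the genotypes differed by -0.26. CGA, the glycoprotein hormone alpha subunit with its 2 elements side by side, read 6.27 and 6.25 against 5.69 to 5.79 on the others, a difference of 0.01. DUSP1, a phosphatase of MAP kinases, differed by -0.42 from block 2, and by -0.09 with neighbours subtracted. A match of letters is not a binding site, and draws nothing about CREB.

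Chloride and fluid secretion genes ranged only from -0.43 to 0.30. Of 38 on the array 33 were measured, 0 differed by 0.5 in size, beside 7.92% of all genes, and the median was -0.04. CFTR read 6.59 and 6.53 (0.06). SLC12A2, the cotransporter that loads chloride into the cell, read 6.10 and 6.50 (-0.40), and CLIC4, an intracellular chloride channel protein, 8.80 and 9.23 (-0.43). The calcium-activated chloride channel ANO1 (0.22) and the water channel AQP2 (-0.32), named for their role, were also within 0.5. Most of these genes were dim, with CFTR and SLC12A2 spots of 52.3 to 72.4 units against background limits of 45.9 and 49.4, so small differences were compressed by the offset.

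Markers of nephron segments had list medians within 0.05 of 0, and not all of them were detected. The podocyte list had 24 measured members, a median of 0.02 and 1 past 0.5 in size, and the slit diaphragm protein NPHS1 read 7.42 and 7.54. NES, an intermediate filament protein, was that 1 (-0.58). Proximal tubule markers measured numbered 31 of 34 with a median of 0.04, and the amino acid transporter subunit SLC7A7 (0.51) and the enzyme BHMT (-0.53) were those past 0.5. BHMT is in block 1 and read -0.12 with neighbours subtracted. In loop of Henle, distal tubule and collecting duct 39 of 44 were measured and had a median of 0.03, with HSD11B2, which inactivates cortisol, at 0.51 and the membrane protein MAL at -0.64. UMOD, SLC12A3 and KCNJ1, defining markers of those segments, did not pass the filter on background, nor did SLC13A1, SLC17A3 and SLC22A2 of the proximal tubule. The 43 epithelial genes had a median of -0.04, with the keratin KRT18 at 0.67 and the cadherin CDH3 at -0.71. EPCAM read 8.94 and 8.95 as the mean of 2 probes that differed in opposite directions, by 0.46 and -0.48. Nephron progenitor genes (18, median 0.01) had 3 lower by 0.5: the cyclin CCND2 (-0.86), TMEM100 (-0.68) and the Notch ligand JAG1 (-0.60). SIX2, their defining transcription factor, read 7.02 and 6.87. At least 0.5 in size were 4.17% of podocyte, 6.45% of proximal tubule and 5.13% of loop, distal tubule and collecting duct genes. The share was 6.98% for epithelium and 16.7% for nephron progenitors, beside 7.92% of all genes. The summed spot medians were 7730 and 10040 units for podocyte, 2488 and 2662 for proximal tubule and 4700 and 5707 for epithelium in PKHD1-/- and PKHD1+/-, whose median spots were 60.9 and 68.8. These sums are not normalized and give no direction between the genotypes.

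**Figure D4:**
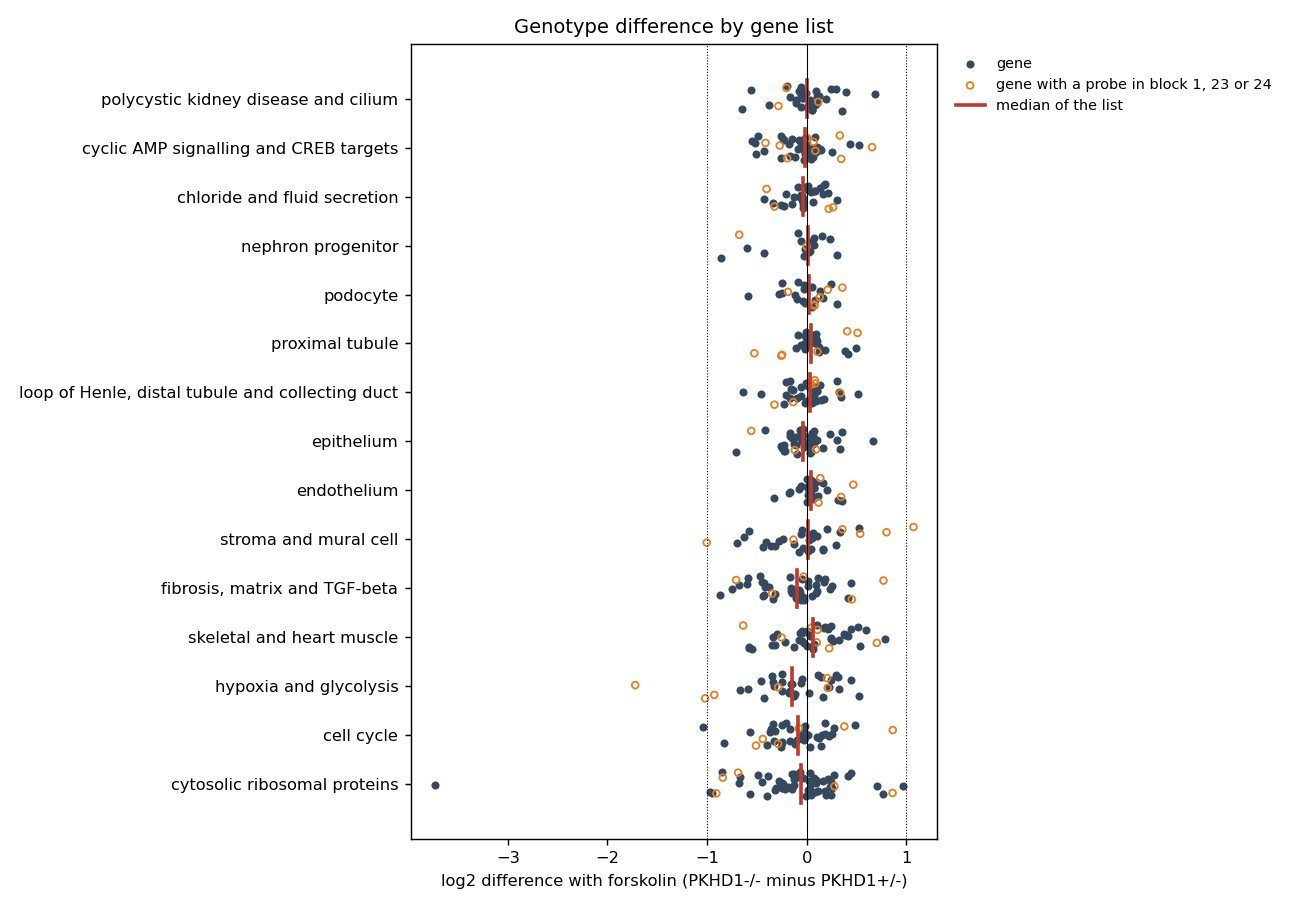
Log2 difference in the forskolin pair (PKHD1-/- minus PKHD1+/-, horizontal axis) of every measured gene in 15 of the 31 lists, 1 point a gene. Open orange circles have a probe in blocks 1, 23 or 24, red bars are list medians, and dotted lines mark a difference of 1 in size. The medians lie between -0.15 and 0.07, and RPL38 is the far point at -3.73.

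Matrix genes were lower in PKHD1-/- more often than higher, by small amounts. Of 45 genes of fibrosis, matrix and TGF-beta 44 were measured, and 15 of them lay above 0, beside 51.6% of all genes, and the median was -0.09 (-0.06 with neighbours subtracted, and 0.02 in the value table, where all genes had a median of 0.24). At least 0.5 lower were 6: the collagen COL5A1 (-0.87), fibronectin FN1 (-0.75), TGFBI (-0.71), the proteoglycan LUM (-0.68), the protease MMP2 (-0.60) and its inhibitor TIMP1 (-0.59). The growth factor TGFB3 was 0.77 higher, and these 7 were 15.9% of the list, beside 7.92% of all genes. FN1 read 9.03 and 9.78 with forskolin, 11.65 and 10.94 in static culture, and 10.83 and 12.40 under flow, so its direction in the static pair was the other way. The list median was 0.20 in the static pair and -0.32 in the flow pair. Stromal and mural markers (34 of 35 measured) had a median of 0.02, with 4 at least 0.5 higher and 4 lower. Together these were 23.5% of the list, beside 7.92% of all genes. TPM2, a tropomyosin of contractile cells, read 12.21 and 11.14 (1.07), and the mural receptor PDGFRB read 8.56 and 7.76 (0.80). Both are in blocks 23 and 24 and read 0.87 and 0.60 after subtraction. VCAN, a large matrix proteoglycan in block 24, is in neither list and was chosen after its value was seen. It differed by 1.43 with forskolin (1.19 with neighbours subtracted) and by -1.06 under flow.

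The lists of muscle, cartilage, neuronal, endothelial, blood, melanocyte and pluripotent genes each had members that did not pass the filter on background. Muscle genes had 46 of 47 members measured, with 29 above 0 (63.0%, beside 51.6% of all genes). Their median was 0.07, against 0.18 in the static and 0.31 in the flow pair. MYH3, KLHL41, PAX7 (0.60), CKM (0.54) and TNNT1 were at least 0.5 higher, and TNNT3 (-0.64), CHRNA1 (-0.58), CASQ2 (-0.57) and ACTC1 (-0.55) at least 0.5 lower. Their summed spot medians were 89650 units in PKHD1-/- and 109300 in PKHD1+/-. These sums are not normalized, and the PKHD1-/- array was the dimmer, with a median spot of 60.9 against 68.8. The sums therefore give no direction between the genotypes. Cartilage and bone genes (32 of 34, median -0.01) held HAPLN1, a link protein of cartilage matrix, at 7.93 against 9.13 (-1.21, and -1.08 with neighbours subtracted). Neuronal genes (44 of 47, median 0.02) held DCX, a microtubule protein of young neurons, at 10.96 against 10.02 (0.94). Endothelial genes (27 of 29 measured) had 22 above 0 (81.5%, beside 51.6% of all genes) but a median of only 0.05. That median was 0.02 with neighbours subtracted, and CDH5 read 5.92 on both arrays. Blood cell genes (16 of 20, median 0.06) ranged from LCP1 at -0.75 to 0.31, and PTPRC, their defining marker, was not well above background. Another member, AIF1, read 7.95 and 8.29, and the globins HBB and HBA1 were not on the array. Melanocyte and glia genes (12 of 17) had a median of -0.06, and MLANA, TYR and TYRP1 were not well above background. Pluripotent and germ cell genes (19 of 23, median 0.05) held MAGEA4 and MAGEA8 as the members past 0.5 (10.5%, beside 7.92% of all genes). LIN28A, ZFP42, PRDM14 and DDX4 were not well above background, while DPPA4 read 8.89 and 9.01. POU5F1 and NANOG were not on the array. What part these cells had in any difference was not tested.

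Glycolysis and hypoxia genes were lower in PKHD1-/- more often than higher with forskolin, but not in the other cultures. Their median was -0.15 over 36 genes and -0.09 with neighbours subtracted, and it stayed below 0 in the value table (-0.099). Of the 36 genes 13 lay above 0 (36.1%), beside 51.6% of all genes. The list median was 0.07 in the static pair and 0.52 in the flow pair, the opposite direction. LDHA and ADM were past 1 (5.56%, beside 0.937% of all genes), and ADM, the vasodilator peptide adrenomedullin, read 6.97 and 7.99 with forskolin (-1.02). With neighbours subtracted ADM was -0.76 and no longer past 1. BNIP3, a mitophagy receptor, differed by -0.93, and the enolases ENO1 and ENO2 by -0.67 and -0.59. GAPDH (0.32) and PKM (0.32), enzymes of the same pathway that were chosen after their values were seen, lay on the other side of 0. LDHA, ADM and BNIP3 are all in block 1 and ENO1 is in block 2. Their values with neighbours subtracted were -1.24, -0.76, -0.76 and -0.51. Cholesterol and lipid genes (28) had a median of 0.00, with FASN, fatty acid synthase, at -0.99 beside SREBF2.

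Growth and patterning lists had medians from -0.11 to 0.00 and held a few large values. The shares above 0 were 33.3% (cell cycle), 35.5% (BMP and ID) and 25.9% (IGF and imprinted), beside 51.6% of all genes. They were 44.4% for HOX and 49.1% for WNT genes. Past 1 was 1 gene each of cell cycle (2.38%), BMP and ID (3.23%), IGF and imprinted (3.7%) and HOX genes (2.78%). The WNT list had 0, and the share of all genes was 0.937%. In the same order, at least 0.5 in size were 11.9%, 12.9%, 25.9%, 16.7% and, for WNT, 9.43%, beside 7.92% of all genes. PCNA, the sliding clamp of DNA replication, read 9.07 and 10.11 (-1.04), the only member of 42 cell cycle genes past 1, and it was -0.87 with neighbours subtracted. The list median was -0.09 (-0.12 with neighbours subtracted and 0.00075 in the value table). The mitotic cyclin CCNB2 differed by -0.83 (-0.66) and the replication helicase subunit MCM5 by 0.86 (0.57). Of BMP and ID genes (31, median -0.02, or 0.11 with 75th percentile scaling) ID1, an inhibitor of helix-loop-helix factors, read 9.82 and 10.98 (-1.15). ID2 (-0.84), ID4 (-0.80) and the BMP antagonist NOG (-0.65) were lower too. ID1 is in block 1 and read -0.54 after subtraction, while ID2 and ID4 are in blocks 3 and 2 and read -0.75 and -0.68. In the IGF system and imprinted genes 7 of 27 lay above 0 and the median was -0.11. IGF2R, the receptor that clears IGF2, read 7.38 and 8.60 (-1.22, and -0.89 with neighbours subtracted, block 1). The growth factor IGF2 had a mean difference of 0.61 over 2 unlike probes of block 23: the bright one read 14.31 and 14.26 (0.05) and the dim one 9.47 and 8.30 (1.17). With scaling of each array to its 75th percentile this median was 0.08. HOX genes (36 of 38 measured, median -0.05) held HOXA7 at -1.02 (-0.67 with neighbours subtracted), HOXA9 at -0.95 and HOXC9 at 0.78. The WNT list (53 of 56, median 0.00) held RSPO3, which strengthens WNT signals, at -0.96.

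Stress and signalling lists had medians within 0.06 of 0. Among 22 heat shock genes the mitochondrial chaperone HSPD1 read 12.19 and 11.02 (1.18) and HSPH1 8.97 and 7.85 (1.13), both in block 23. HSPA1B, in block 1, read 7.70 and 8.96 (-1.26). The 3 were 13.6% of the list, beside 0.937% of all genes past 1. They read 0.72, 0.66 and -0.66 with neighbours subtracted, and HSPA1A, nearly identical to HSPA1B, differed by 0.28. Unfolded protein genes (35, median 0.01) ranged from SLC7A5 at -0.58 to MANF at 0.89. Interferon genes (35 of 36 measured, median 0.05) ranged from STAT2 at -0.65 to IFIT1 at 0.71. Immediate early genes (36, median -0.03) had 1 past 0.5 (2.78%, beside 7.92% of all genes), IER5 at -0.58. Metallothioneins (12 of 13, median 0.04) had MT1B at 0.54, while the list median was -0.91 in the static pair. Chemokines and cytokines (31 of 37, median 0.01) held IL17B and IL17D above 1 and CXCL12 under -1 (9.68%, beside 0.937% of all genes). Ribosomal proteins (60, median -0.05, or 0.19 in the value table) had 4 at least 0.5 higher and 10 lower (23.3%, beside 7.92% of all genes). They ran from RPL38 at -3.73 to RPL37A at 0.97, and near-identical pseudogenes leave such probes uncertain.

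Some genes past 1 with forskolin were past it in another culture too, in the same or in the opposite direction. Of the 82 higher genes 5 (6.1%) were past 1 in the same direction in static culture, where 0.435% of all genes were, and 0 under flow, where 0.281% were. Of the 68 lower genes 3 (4.41%) were past 1 in the same direction in static culture, beside 0.255% of all genes, and 1 (1.47%) under flow, beside 0.788%. In the opposite direction, 6 of the 82 were past 1 in size under flow, beside 0.788% of all genes, and 0 in static culture. Of the 68, 2 were so under flow, beside 0.281%, and 1 in static culture, beside 0.435%. Static differences lay above 0 in 60 of the 82 (73.2%), with a median of 0.29, where 49.3% of all genes did. Flow differences lay above 0 in 31 (37.8%), with a median of -0.09, beside 52.1% of all genes. For the 68 lower genes, 39 (57.4%) lay below 0 in static culture and 29 (42.6%) under flow. Over all genes measured in both pairs, the differences with forskolin correlated at r = 0.0838 with those in static culture (15623 genes) and at -0.0642 with those under flow (15674 genes). Static and flow differences correlated at -0.354 over 15888 genes. The points share arrays, probes and clones, and no p is given.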

How the data were processed

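Total RNA of day 35 organoids was amplified to RNA that was coupled to Cy5, per the labels' protocols, and hybridized to 6 single-colour 3D-Gene arrays, 1 per group. The deposited scanner files give each spot's median intensity, which is linear and has no background taken off, per the file headers. The deposited value table gives an intensity per probe, found to be a straight line of spot median minus the trimmed mean of blank spots, with a median of 25 on every array and empty cells below 2 SD.

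Spot medians were corrected by normexp (offset 50), turned to log2 and made alike in distribution over 6 arrays by quantile normalization (limma 3.58.1, R 4.3.3, Python 3.11.15). Of 24460 probes 20236 carry 1 gene symbol and 4224 none. Symbols were current for 17238, updated for 2899 and kept as listed for 99. After 23 probes with a bad forskolin spot were left out, probes were averaged to 17540 genes, of which 1534 were left out as dim. Local background was not subtracted. Arrays give no count of molecules, so their number limits the precision, and no test was run. The normalization steps were tested on simulated copies of 1 forskolin array with known folds put on bright probes. That test held no effect of position, no folds on dim probes and no averaging of probes to genes.

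PKHD1, FOS and RAC1 were always named. So were the 15 highest and 15 lowest genes with 1 sign in all probes and in the value table, placeholder names left out, and from each of 31 lists the members past 1 or the 2 to 4 largest. Others are said to be chosen by role or after their values were seen. Members and lists were chosen with earlier results of these data known. Promoter letters are from RefSeq (GRCh38.p14). For a dim gene the bound takes, as the dim value, the higher of its own and the lowest signal above background. Alternatives changed the normalization, offset, filter, probe choice, fold and position handling.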

Additional observations from a re-analysis of the deposited data

Results flagged for a closer look

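Some genes differed by at least 1 in opposite directions in the forskolin pair and in another culture. Of the 82 higher genes, 6 were lower by at least 1 under flow, where 0.788% of all genes were, and 0 in static culture. Of the 68 lower genes, 2 were higher by at least 1 under flow (0.281% of all genes) and 1 in static culture (0.435%). The difference between cultures was not tested, since each value rests on 1 pair of arrays. ATP5F1D was -1.96 with forskolin and 1.10 in static culture. Against the flow pair, ADM was -1.02 with forskolin and 1.26 under flow, and TCEAL8 was -1.05 and 3.07. The TCEAL8 value under flow came from the PKHD1+/- flow array at 8.61, with the other 5 arrays between 10.52 and 11.68. Higher with forskolin and lower under flow were EPRS1 (1.22 and -1.04), GLG1 (1.59 and -1.13), HTRA1 (1.38 and -1.26), NIT1 (1.16 and -1.08), RAP2A (1.36 and -1.24) and VCAN (1.43 and -1.06). With neighbours subtracted, 5 of the 9 forskolin values were under 1 in size: ADM at -0.76, EPRS1 at 0.71, GLG1 at 0.96, HTRA1 at 0.71 and RAP2A at 0.62. ATP5F1D (-1.71), TCEAL8 (-1.04), NIT1 (1.05) and VCAN (1.19) stayed past it. Of these 9 genes, ATP5F1D and ADM lie in block 1, TCEAL8 in block 2 and the other 6 in block 24.

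Probes without a gene symbol were not used in the comparison by gene. Of 3570 such probes above background, 21 (0.588%) differed by at least 1 in size, 12 higher and 9 lower. Of the 21, 9 lay in blocks 1, 23 and 24.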

How the results depend on the processing

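The count of genes past 1 was 82 higher and 68 lower. It became 51 and 126 with 75th percentile scaling, 147 and 149 with an offset of 16, and 1196 and 262 with the authors' value table. A threshold of 1.5 gave 11 and 17, subtracting neighbours 30 and 28, and leaving out blocks 1, 23 and 24 15 and 19, the last 2 settings chosen after seeing the data. The share of higher genes among those past 1 was 54.7%, against 28.8% with 75th percentile scaling and 82.0% in the value table. These 2 scalings moved the median of all genes by 0.16 and 0.23. In the value table the median was 0.434 for the dimmest of 3 equal groups of genes and 0.128 for the brightest. Quantile normalization over the 2 arrays alone, no background correction, other filters and the brightest probe stayed within 1.5 times, from 73 to 96 higher and 63 to 80 lower. List medians changed direction once past 0.1, the IGF and imprinted list from -0.11 to 0.083 with 75th percentile scaling. A value counted as moved when it shifted by more than 0.31, the SD between probes of a gene, which is wide for a list median. List medians moved that far for 7 lists in the value table, and 302 of 310 values did not. Medians near 0 could change sign, and over all settings 36 of 310 values had another sign, 11 each with 75th percentile scaling and in the value table. For named genes 183 values stayed within 0.31 and 55 did not, and 1 of 238 changed sign, RAC1 from 0.03 to -0.17 with 75th percentile scaling. Leaving out a replicate was not possible with 1 array a side. No paired analysis was possible because each group has 1 array and the groups share fewer than 2 replicate numbers. Dim genes limit the comparison: the median spot was 16.5 and 21.2 units above the blank spots, less than the offset.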
